A study of Homo sapiens with 9 samples.

Results

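Hairpin 32-3 was set against hairpins 32-2 and 32-8, which are 3 of the 4 short hairpin RNAs used to knock down the long noncoding RNA lncRNA-OIS1 in BJ cells while oncogenic RASG12V was active. BJ cells are human foreskin fibroblasts, here immortalised with hTERT, the catalytic subunit of telomerase. The 3 libraries were picked from the 9 of the series by the hairpin named in their labels. That rule uses no measured value, but the comparison was proposed with earlier results of these data known. Each hairpin is represented by 1 polyA RNA-seq library, so the comparison is 1 library of hairpin 32-3 against 1 library of hairpin 32-2 and 1 of hairpin 32-8. Around them stand 1 library of the fourth lncRNA-OIS1 hairpin (32-9), 1 of p53 knockdown and 1 of BRD7 knockdown, all 3 with RASG12V, then 2 senescent libraries with RASG12V and a non-targeting hairpin (500 or 507), and 1 control library with non-targeting hairpin 500 and no RASG12V named. All 9 libraries came from the same line, and the labels give 14 days of 4-OHT, the drug 4-hydroxytamoxifen, for each of them, the control included, while the design text of the series calls the control cells untreated. Which of these holds for the control is not settled here, and its values are given beside the others on that footing. No source used here says whether the libraries came from separate cultures, so every p-value below measures only the spread between these libraries. No value is given for lncRNA-OIS1 itself, which was not analysed here, so how far each hairpin lowered its target is not known from these values.

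Oncogenic RAS drives normal fibroblasts into senescence, a lasting arrest in which p53 and its target p21 (CDKN1A) and the p16-RB branch (CDKN2A) block the cell cycle. Loss of p53 or of BRD7, a bromodomain protein that acts with p53, lets such cells go on dividing. Senescent fibroblasts also secrete interleukins, chemokines, growth factors and proteases, the senescence-associated secretory phenotype, whose inflammatory members are driven largely by NF-kB and C/EBP-beta. Hairpins against a single transcript share the intended target and differ in sequence, and each can act on other transcripts through its own seed.

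Expression is given as the normalised value of the deposited table, in which all 9 columns hold the same set of numbers with a median of 340.1 and no number under 20, called the floor here. Read depth per library is therefore unknown. Of 13745 genes, the 12481 with a value of at least 40 in at least 1 of the 9 libraries were tested. Differences are on the log2 scale, so that 1 unit is a 2-fold difference, and a gene lies above or below both when hairpin 32-3 is outside the range of hairpins 32-2 and 32-8. Of the knockdowns, that of BRD7 was checked: BRD7 was at 94.6 in the BRD7 knockdown library, against 628.7 and 536.6 in senescent libraries. Fibroblast markers (22 of 22 above the floor in every library) summed to 251810.5 for hairpin 32-3, against 299082.8 for hairpin 32-2 and 274999.0 for hairpin 32-8. Markers of other cells were mostly low. The 7 leukocyte markers in the table summed to 315.6 for hairpin 32-3, against 296.2 and 265.8 for hairpins 32-2 and 32-8, and 4 of the 7 were at the floor with hairpin 32-3. The 5 epithelial markers in the table summed to 2188.4 for hairpin 32-3, against 2070.1 and 1203.0 for hairpins 32-2 and 32-8, and the 3 endothelial ones to 225.6, against 280.8 and 267.3.

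Measured over all genes tested, hairpin 32-3 did not lie nearest to the other 2 hairpins. Its median absolute log2 difference was 0.152 from BRD7 knockdown, 0.198 from hairpin 32-8, 0.199 from p53 knockdown and 0.202 from hairpin 32-2. Hairpins 32-2 and 32-8 were 0.180 apart from each other, and 0.312 and 0.314 from p53 knockdown. The senescent libraries were 0.269 and 0.294 from hairpin 32-3, and only 0.093 apart from each other. Hairpin 32-9 was farther from hairpin 32-3, at 0.291, with 12.6% of genes at least 2-fold apart, against 3.06% for hairpin 32-2, 3.16% for hairpin 32-8, 3.02% for p53 knockdown and 1.77% for BRD7 knockdown. Between hairpins 32-2 and 32-8 that share was 3.54%, and between the senescent libraries 0.232%.

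**Figure D1:**
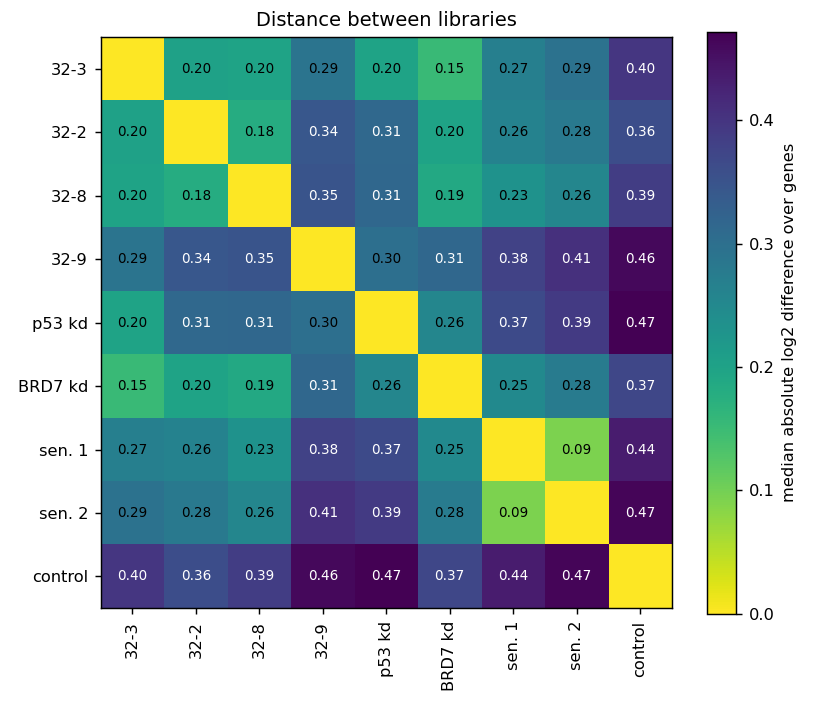
Median absolute log2 difference over 12481 genes between hairpin 32-3, 32-2 or 32-8 and each other library. Hairpin 32-3 is nearest to BRD7 knockdown (0.152), and it lies closer to p53 knockdown (0.199) than hairpins 32-2 (0.312) and 32-8 (0.314) do.

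Hairpin 32-3 gave higher values of cell cycle genes than hairpins 32-2 and 32-8, and lower values of p53 targets and of inflammatory and other secreted factors, but no single gene passed the test across all genes. A moderated linear model (limma) on log2 values with Benjamini-Hochberg adjustment called 0 of 12481 genes higher (0%) and 0 lower (0%) at an adjusted p under 0.05. The smallest adjusted p was 0.212, and 1772 genes (14.2%) had an unadjusted p under 0.05, of which 917 were higher (7.35% of genes tested) and 855 lower (6.85%). That unadjusted count depended on which libraries gave the spread. It was 830 without the first senescent library, 835 without the second, 2875 without hairpin 32-2, 2922 without hairpin 32-8, 824 with only the 3 libraries compared and 430 with hairpin 32-9 added to hairpins 32-2 and 32-8. An exact permutation test of 1 library against 2 cannot go below p = 0.333, so it can call nothing here. With all genes of the table kept, limma called 62, of which 58 were higher and 4 lower. The genes which that setting adds were all under 40 in every library, and so near the floor. Whether the 62 include genes near the floor was not tested, so they are not read as differences of hairpin 32-3. Across the genes tested, hairpin 32-3 lay above both other hairpins for 4335 genes (34.7%) and below both for 4067 (32.6%). It was at least 2-fold above both for 33 genes (0.264%) and at least 2-fold below both for 71 (0.569%). Floor values limit some of these, since hairpin 32-2 or 32-8 was at the floor for 4 of the 33 and hairpin 32-3 for 6 of the 71. Together these 104 genes became 394 without hairpin 32-2, 382 without hairpin 32-8, and 31 when hairpin 32-9 was added.

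**Figure D2:**
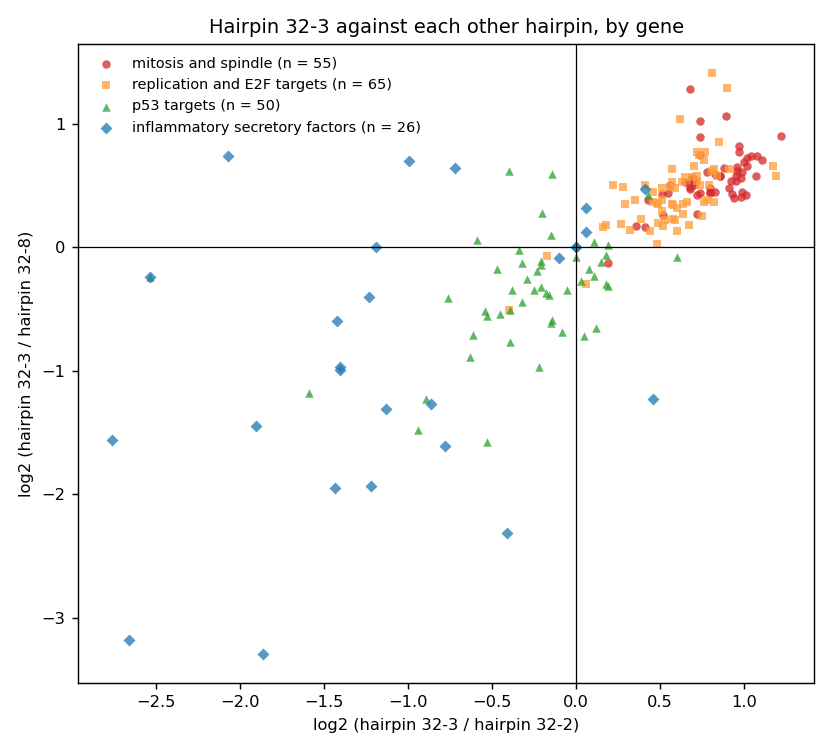
Each point is a gene tested, with its log2 value for hairpin 32-3 against the mean log2 value of hairpins 32-2 and 32-8, and list members in colour. Mitosis genes lie above the line of equality, with a median difference of 0.71, and inflammatory secretory factors lie mostly below it, with a median of -1.04.

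Mitosis and spindle genes were the list most evenly displaced. Of 55 members tested, 54 lay above both hairpins (98.2%, against 34.7% of all genes) and none below both (against 32.6%). The exception was CDC25B, a phosphatase that activates CDKs, at 1702.4 for hairpin 32-3, against 1496.7 for hairpin 32-2 and 1865.0 for hairpin 32-8. The median log2 difference over the list was 0.71, against 0.00 over all genes. It was 0.83 against hairpin 32-2 alone and 0.54 against hairpin 32-8 alone. No member was 2-fold beyond both hairpins, and none was called by limma. Of the 55, 20 had an unadjusted p under 0.05, all higher, beside 7.35% of all genes higher at that cut. Whether more cells cycled or each cycling cell held more of these RNAs cannot be told apart in bulk samples. The bases upstream of MKI67 and TOP2A are shown because many mitotic genes share the cell cycle homology region (CHR), here TTTGAA, and CCAAT boxes. RefSeq promoters (GRCh38.p14, the 250 bases before the start) were matched for 46 of the 55 genes, and searched on both strands. CHR letters were in 27 of the 46 (58.7%), against 13.3% of 35116 promoters in all, and CCAAT in 35 (76.1%), against 32% of all. Here and below, a list counts 1 promoter per gene, while the 35116 are every promoter of the reference, not only those of genes tested. CCAAT was also in 69.2% of matched cholesterol and fatty acid synthesis promoters and 55.4% of replication promoters, but in 7.69% for NF-kB and C/EBP regulators. In MKI67 (chr10:128126424-128126673, minus strand) and TOP2A (chr17:40417897-40418146, minus strand), capitals mark CHR and CCAAT matches in either direction. One CHR and one CCAAT match of MKI67 overlap. Such a match is a description of letters, not of binding.
MKI67: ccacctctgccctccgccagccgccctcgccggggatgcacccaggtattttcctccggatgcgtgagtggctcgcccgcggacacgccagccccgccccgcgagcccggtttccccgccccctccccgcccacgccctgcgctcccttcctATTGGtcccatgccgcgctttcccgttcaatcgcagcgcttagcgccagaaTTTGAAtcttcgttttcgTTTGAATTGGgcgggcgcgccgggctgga
TOP2A: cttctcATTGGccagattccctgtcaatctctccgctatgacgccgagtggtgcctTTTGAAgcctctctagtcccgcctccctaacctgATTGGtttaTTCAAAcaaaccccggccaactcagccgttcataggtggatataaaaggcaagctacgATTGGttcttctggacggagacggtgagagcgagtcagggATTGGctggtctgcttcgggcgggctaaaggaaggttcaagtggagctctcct

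Among the cell cycle genes, MKI67, whose protein marks cycling cells, was at 5049.7 for hairpin 32-3, against 2574.2 for hairpin 32-2 and 2960.2 for hairpin 32-8. The difference of 0.87 had an SE of 0.20 and an adjusted p of 0.295 in limma. BRD7 knockdown had 5027.6 and p53 knockdown 6931.1, while the senescent libraries had 1231.3 and 972.4 and the control 3913.6. All 3 hairpins thus lay above both senescent libraries for MKI67, with hairpin 32-3 close to BRD7 knockdown. DLGAP5, a spindle assembly protein, had the largest difference of the list, with 1502.1 for hairpin 32-3 against 644.0 and 805.7 for hairpins 32-2 and 32-8 (1.06, SE 0.22, adjusted p = 0.295). KIF23, a kinesin of cytokinesis, had 2142.8 for hairpin 32-3, against 1154.9 and 1024.2 for hairpins 32-2 and 32-8 (0.98, SE 0.13, adjusted p = 0.284). TOP2A, the topoisomerase that untangles sister chromatids, had 8471.4 for hairpin 32-3, against 4043.0 and 5657.9 for hairpins 32-2 and 32-8. CCNB1, the mitotic cyclin, stood at 2456.2 for hairpin 32-3, against 1270.9 and 1646.1, and its partner CDK1 at 1180.0, against 800.8 and 837.2, for hairpins 32-2 and 32-8. FOXM1, the transcription factor of late cell cycle genes, had 1184.4 for hairpin 32-3, against 806.6 and 871.8 for hairpins 32-2 and 32-8. The mitotic kinases and the checkpoint gave the same order. AURKB was at 574.7, PLK1 at 1270.9 and BUB1 at 1603.2 for hairpin 32-3, against 265.9, 628.3 and 899.7 for hairpin 32-2 and 350.8, 770.0 and 1062.8 for hairpin 32-8.

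DNA replication genes and other E2F targets were displaced less far. Of 65 tested, 62 lay above both hairpins (95.4%, against 34.7% of all genes), 2 below both (3.08%, against 32.6%) and 1 between. The median log2 difference was 0.49, being 0.59 against hairpin 32-2 and 0.38 against hairpin 32-8. At an unadjusted p under 0.05, 21 of the 65 were higher and 1 lower, beside 7.35% and 6.85% of all genes. CCNA2, the S phase cyclin, stood at 1334.7 for hairpin 32-3, against 710.9 and 859.7 for hairpins 32-2 and 32-8 (0.77, SE 0.20, adjusted p = 0.304). LMNB1, the nuclear lamin whose loss marks senescence, had 922.7 for hairpin 32-3, against 526.3 and 347.1 for hairpins 32-2 and 32-8, and 224.3 and 174.9 in senescent libraries. Its difference of 1.11 (SE 0.35, adjusted p = 0.343) was the largest of the list. E2F1, which drives S phase entry, had 325.7 for hairpin 32-3, against 189.2 and 249.7 for hairpins 32-2 and 32-8. Replicative helicase subunits took the same order, with MCM2 at 790.7 against 523.7 and 680.8, and MCM6 at 708.8 against 404.7 and 461.6, for hairpin 32-3 against hairpins 32-2 and 32-8. The 2 below both were CHEK1, the S phase checkpoint kinase (876.9 for hairpin 32-3, against 988.2 and 920.3 for hairpins 32-2 and 32-8), and CCNE1, the G1/S cyclin. CCNE1 stood at 75.6 for hairpin 32-3, against 99.8 and 107.7 for hairpins 32-2 and 32-8, 173.6 and 164.7 in senescent libraries and 52.4 in the control (difference -0.46, SE 0.11, adjusted p = 0.301). E2F7, a repressor that p53 can induce, lay between, at 2461.8 for hairpin 32-3 against 2368.1 and 3028.7 for hairpins 32-2 and 32-8. The E2F motif TTTGGCGC was in 7 of the 56 matched promoters of the list (12.5%), against 0.55% of all. Other lists also held it, at 4.35% for mitosis, 3.85% for cholesterol and fatty acid synthesis and 2.63% for p53 targets. Inflammatory factors and NF-kB and C/EBP regulators had 0%. MCM6 (chr2:135876444-135876693, minus strand) is shown because it holds 2 such matches and 2 CCAAT boxes, in capitals.
MCM6: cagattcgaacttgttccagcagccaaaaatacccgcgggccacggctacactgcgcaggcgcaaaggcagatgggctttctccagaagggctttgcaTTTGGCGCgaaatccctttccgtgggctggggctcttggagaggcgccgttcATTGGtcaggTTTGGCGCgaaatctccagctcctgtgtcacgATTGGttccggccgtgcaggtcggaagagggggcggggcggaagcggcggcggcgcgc

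**Figure D3:**
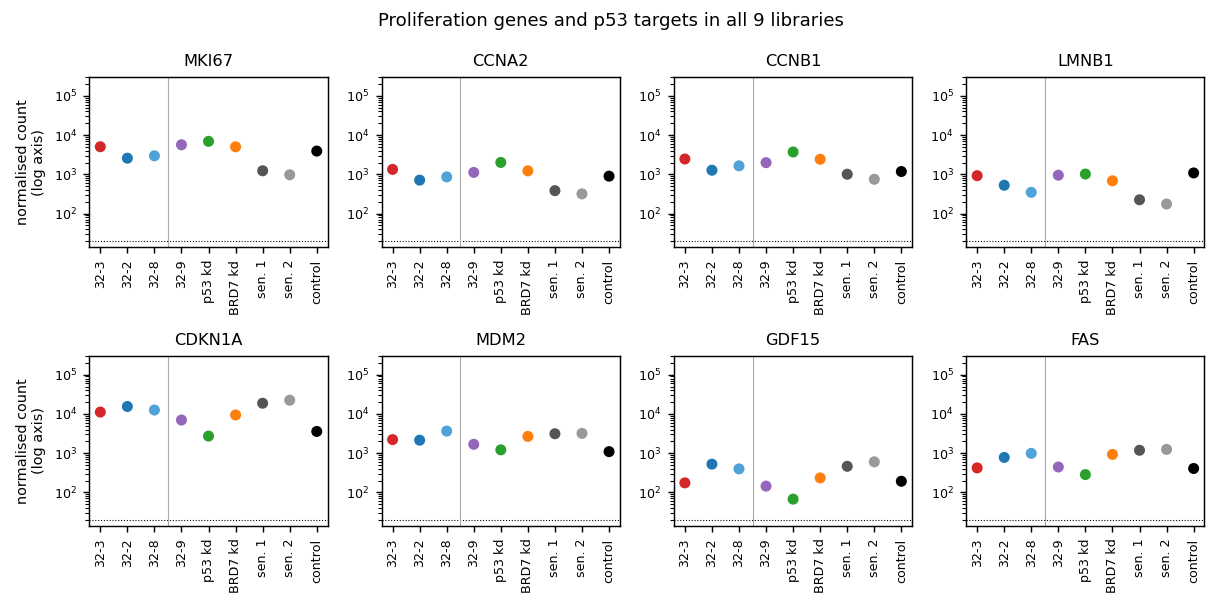
Normalised values on a log axis of proliferation genes and p53 targets, 1 point per library. For MKI67 hairpin 32-3 (5049.7) lies above hairpins 32-2 (2574.2) and 32-8 (2960.2), and for GDF15 it lies below them (175.0 against 525.6 and 397.4).

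Genes that p53 activates had lower values for hairpin 32-3 in most cases. Of 50 p53 targets tested, 31 lay below both hairpins (62.0%, against 32.6% of all genes), 3 above both and 16 between, and the median log2 difference was -0.27. With hairpin 32-9 added to hairpins 32-2 and 32-8 the median was -0.07, with 22 members higher and 28 lower. At an unadjusted p under 0.05, 12 of the 50 were lower and 1 higher, beside 6.85% and 7.35% of all genes. CDKN1A, which encodes the CDK inhibitor p21, had 11146.3 for hairpin 32-3, against 15473.7 and 12588.4 for hairpins 32-2 and 32-8, and 18745.7 and 22372.6 in senescent libraries. That difference of -0.32 (SE 0.20, adjusted p = 0.53) is small beside the gap between hairpin 32-3 and p53 knockdown, where CDKN1A was at 2721.1. GDF15, a secreted stress cytokine, was the only member at least 2-fold below both, at 175.0 for hairpin 32-3 against 525.6 and 397.4 for hairpins 32-2 and 32-8 (-1.38, SE 0.29, adjusted p = 0.295). FAS, the death receptor, had 421.0 for hairpin 32-3, against 778.1 and 988.8 for hairpins 32-2 and 32-8 (-1.06, SE 0.18, adjusted p = 0.287). ZMAT3, an RNA-binding protein induced by p53, had 2769.8 for hairpin 32-3, against 3998.3 and 4096.8 for hairpins 32-2 and 32-8 (-0.55, SE 0.05, adjusted p = 0.278). MDM2, the ubiquitin ligase that degrades p53, did not follow, with 2217.4 for hairpin 32-3 between 2140.7 for hairpin 32-2 and 3657.1 for hairpin 32-8. BAX also lay between, at 1689.2 for hairpin 32-3 against 1593.3 and 1917.6 for hairpins 32-2 and 32-8. CMBL, on the list as a p53 target, went the other way, at 913.8 for hairpin 32-3 against 680.1 and 682.7 for hairpins 32-2 and 32-8 (0.42, SE 0.06, adjusted p = 0.284). Among 16 regulators of p53 the median difference was -0.05, with 3 above both (18.8%, against 34.7% of all genes) and 5 below both (31.2%, against 32.6%). PPM1D, a phosphatase that switches off p53 signalling, was at 224.3 for hairpin 32-3, against 290.7 and 325.2 for hairpins 32-2 and 32-8. BRD7 itself was at 628.7 for hairpin 32-3, against 632.6 and 695.3 for hairpins 32-2 and 32-8.

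CDK inhibitors, cyclins and pocket proteins showed no common direction, with 10 of 18 above both (55.6%, against 34.7% of all genes), 5 below both (27.8%, against 32.6%) and a median difference of 0.11. CDKN2B, which encodes the CDK4 and CDK6 inhibitor p15, was at 215.7 for hairpin 32-3, against 395.9 and 256.1 for hairpins 32-2 and 32-8. CDKN2A was at the floor of 20 in all 3 hairpin libraries and in every other library except hairpin 32-9, at 362.3. CDKN3, a phosphatase that peaks in mitosis, had 438.2 for hairpin 32-3, against 199.6 and 270.2 for hairpins 32-2 and 32-8.

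Inflammatory secretory factors had the lowest median of the lists. Of 26 members tested, from 30 in the table and 42 on the list, 16 lay below both hairpins (61.5%, against 32.6% of all genes). At least 2-fold below both were 7 of the 26, beside 0.569% of all genes, and 3 lay above both (11.5%, against 34.7%). The median log2 difference was -1.04, being -1.16 against hairpin 32-2 and -0.79 against hairpin 32-8. At an unadjusted p under 0.05, 5 of the 26 were lower and 1 higher, beside 6.85% and 7.35% of all genes, and none was called. Part of the list is near the floor: with log2(value + 50) the median was -0.63, and over all 30 in the table it was -0.74. With hairpin 32-9 added to hairpins 32-2 and 32-8 it was -0.02. Several of these genes carry NF-kB sites near the start, so the 250 upstream bases of 4 chemokine and interleukin genes are shown with matches to the kappaB motif GGANTTTCC in capitals, CXCL8 (chr4:73740319-73740568, plus strand), CXCL2 (chr4:74099196-74099445, minus strand), CXCL3 (chr4:74038690-74038939, minus strand) and IL6 (chr7:22726950-22727199, plus strand). The motif, searched on both strands, was in 8 of 19 matched promoters of the list (42.1%), against 1.45% of all. Its share was 19.2% for NF-kB and C/EBP regulators, 5.26% for p53 targets and 3.85% for cholesterol and fatty acid synthesis. For replication promoters it was 3.57%, and for mitosis promoters 0%.
CXCL8: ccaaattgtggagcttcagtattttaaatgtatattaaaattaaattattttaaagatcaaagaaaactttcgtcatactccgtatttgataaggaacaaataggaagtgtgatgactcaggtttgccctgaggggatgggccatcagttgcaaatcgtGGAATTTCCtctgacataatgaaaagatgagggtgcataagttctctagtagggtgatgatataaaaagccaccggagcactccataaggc
CXCL2: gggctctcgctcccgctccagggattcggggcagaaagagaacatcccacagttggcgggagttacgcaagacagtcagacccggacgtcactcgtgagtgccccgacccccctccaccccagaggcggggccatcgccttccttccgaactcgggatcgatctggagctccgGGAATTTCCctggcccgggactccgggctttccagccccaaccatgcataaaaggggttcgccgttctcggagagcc
CXCL3: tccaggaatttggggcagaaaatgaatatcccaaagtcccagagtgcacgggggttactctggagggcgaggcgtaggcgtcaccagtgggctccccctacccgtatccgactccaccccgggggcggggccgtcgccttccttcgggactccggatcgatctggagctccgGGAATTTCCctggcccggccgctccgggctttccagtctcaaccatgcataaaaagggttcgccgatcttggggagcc
IL6: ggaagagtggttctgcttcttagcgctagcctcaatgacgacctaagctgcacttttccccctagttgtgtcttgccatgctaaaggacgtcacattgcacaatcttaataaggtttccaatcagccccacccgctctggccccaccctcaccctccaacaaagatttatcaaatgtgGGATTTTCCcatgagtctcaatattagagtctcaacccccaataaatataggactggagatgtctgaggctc

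CXCL8, the neutrophil chemokine listed in the table under its older symbol IL8, stood at 4733.9 for hairpin 32-3, against 17615.8 for hairpin 32-2 and 12902.8 for hairpin 32-8. The senescent libraries had 931.6 and 2021.6, and the control was at the floor of 20. Hairpin 32-3 therefore lay between both senescent libraries and the other hairpins, with a difference of -1.67 (SE 0.59, adjusted p = 0.368 in limma). IL1B, an interleukin of the same list, took the same order, with 4790.4 for hairpin 32-3 against 12902.8 and 18474.2 for hairpins 32-2 and 32-8. The senescent libraries had 1035.0 and 3344.9 for IL1B, and its difference between the hairpins was -1.69 (SE 0.86, adjusted p = 0.472 in limma). IL1A, its membrane-bound relative, was low throughout, with 36.0 for hairpin 32-3 against 61.9 and 110.2 for hairpins 32-2 and 32-8. For IL6, the interleukin that reinforces senescence, hairpin 32-3 was at the floor of 20, against 135.6 and 58.8 for hairpins 32-2 and 32-8, so its difference of -2.16 (SE 0.59, adjusted p = 0.316) understates any gap. Both senescent libraries were at the floor for IL6 as well. BRD7 knockdown, at 60.6, was the only other library above it.

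Chemokines did not all take that order. CXCL1 stood at 628.6 for hairpin 32-3, against 1144.3 and 1513.4 for hairpins 32-2 and 32-8 (-1.07, SE 0.49, adjusted p = 0.433), and CXCL2 at 89.2, against 238.2 and 135.6 (-1.01, SE 0.41, adjusted p = 0.395). CXCL3, which carries the same kappaB letters as CXCL2 in the sequences shown, was at 47.8 for hairpin 32-3, against 45.7 and 43.9 for hairpins 32-2 and 32-8. These 3 genes have closely similar sequences, and reads could be exchanged between them. CCL2, the monocyte chemokine, separated hairpins 32-2 and 32-8 instead, with 141.7 for hairpin 32-3 between 596.3 and 85.1 for hairpins 32-2 and 32-8. CXCL10, an interferon-induced chemokine, had 56.3 for hairpin 32-3, against 131.0 and 215.0 for hairpins 32-2 and 32-8. CSF3, the granulocyte growth factor, had 20.7 for hairpin 32-3, against 75.2 and 203.1 for hairpins 32-2 and 32-8 (-2.58, SE 0.70, adjusted p = 0.316). IL13RA2, a decoy receptor for interleukin 13, gave the largest gap in the list, with 44.4 for hairpin 32-3 against 280.4 and 403.0 for hairpins 32-2 and 32-8 (-2.92, SE 0.29, adjusted p = 0.284). The senescent libraries lay between, at 154.7 and 132.9. The member with the largest positive difference, CXCL12, was near the floor, at 30.2 for hairpin 32-3 against 22.7 and 21.8 for hairpins 32-2 and 32-8.

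NF-kB and C/EBP regulators lay lower in hairpin 32-3, but by less. Of 30 tested, 17 lay below both hairpins (56.7%, against 32.6% of all genes), 5 above both (16.7%, against 34.7%), and the median difference was -0.17. TNFAIP3, a feedback inhibitor of NF-kB, had 88.4 for hairpin 32-3, against 143.9 and 348.8 for hairpins 32-2 and 32-8. NFKBIZ, a nuclear cofactor that NF-kB induces, had 2381.7 for hairpin 32-3, against 4769.7 and 3258.9 for hairpins 32-2 and 32-8, while both senescent libraries had less, at 899.0 and 1197.4. CEBPB had 224.6 for hairpin 32-3, against 314.3 and 305.8 for hairpins 32-2 and 32-8 (-0.47, SE 0.10, adjusted p = 0.295). TLR4, a receptor upstream of NF-kB, lay between, at 990.1 for hairpin 32-3 against 1183.8 and 426.1 for hairpins 32-2 and 32-8. The 49 interferon response genes gave no common order, with 17 above both (34.7%, as over all genes), 11 below both (22.4%, against 32.6%) and a median of 0.05. Against hairpin 32-2 alone that median was -0.08, and against hairpin 32-8 alone 0.17. IFIT1, an interferon-induced antiviral protein, had 399.2 for hairpin 32-3, against 323.8 and 173.9 for hairpins 32-2 and 32-8. TMEM173, which encodes the DNA-sensing adaptor STING, had 1128.8 for hairpin 32-3, against 2025.7 and 1930.3 for hairpins 32-2 and 32-8 (-0.81, SE 0.06, adjusted p = 0.26).

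Secreted growth factors and proteases gave wide gaps in single genes. IGFBP3, which binds insulin-like growth factors, had 699.9 for hairpin 32-3, against 5072.7 for hairpin 32-2 and 5357.3 for hairpin 32-8. It was 7.45-fold lower (-2.90, SE 0.12, adjusted p = 0.212), and the senescent libraries had 505.4 and 434.3, near hairpin 32-3. INHBA, the activin A subunit, had 189.7 for hairpin 32-3, against 838.9 and 1764.9 for hairpins 32-2 and 32-8, and again hairpin 32-3 was within the range of the senescent libraries at 149.1 and 204.7. C3, a complement component, had 112.6 for hairpin 32-3, against 616.0 and 1203.8 for hairpins 32-2 and 32-8. In all, 22 of 42 growth factors and secreted modulators lay below both hairpins (52.4%, against 32.6% of all genes). At least 2-fold below both were 6 of the 42, beside 0.569% of all genes. Another 5 lay above both (11.9%, against 34.7%), and the list median was -0.30. FGF1 was the member with the largest positive difference, at 1053.2 for hairpin 32-3 against 752.2 and 598.1 for hairpins 32-2 and 32-8. Among 20 matrix metalloproteinases and inhibitors, 12 lay below both (60.0%, against 32.6% of all genes) and 1 above both (5.00%, against 34.7%). The median was -0.26. MMP3, stromelysin, had 652.4 for hairpin 32-3, against 1807.4 and 4219.4 for hairpins 32-2 and 32-8, and it was also below both senescent libraries (3523.0 and 3178.4). MMP1, interstitial collagenase, had 40950.0 for hairpin 32-3, against 63004.2 and 110360.7 for hairpins 32-2 and 32-8. MMP10 rests on 1 library, with 27.3 for hairpin 32-3 against 56.8 for hairpin 32-2 and 787.0 for hairpin 32-8.

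Fibrillar matrix genes had a median difference of -0.20, with 22 of 49 below both (44.9%, against 32.6% of all genes) and 7 above both (14.3%, against 34.7%). COL5A3, a collagen V chain, had 113.6 for hairpin 32-3, against 541.7 and 466.1 for hairpins 32-2 and 32-8 (-2.15, SE 0.19, adjusted p = 0.278), and COL6A1 had 18330.7, against 26556.6 and 33191.3. EFEMP1, fibulin-3, went the other way, at 429.9 for hairpin 32-3 against 155.6 and 284.0 for hairpins 32-2 and 32-8. Contractile and TGF-beta response genes gave a median of 0.00 over 25 members. TAGLN, an actin-binding protein of contractile cells, had 388.9 for hairpin 32-3, against 1090.1 and 449.1 for hairpins 32-2 and 32-8. Of 41 RAS-MAPK output genes, 18 lay below both (43.9%, against 32.6% of all genes) and 7 above both (17.1%, against 34.7%), with a median of -0.14 that was -0.02 against hairpin 32-8 alone. SPRY1, a feedback inhibitor of that pathway, was at the floor of 20 for hairpin 32-3, against 122.3 and 87.4 for hairpins 32-2 and 32-8. HRAS, named after its values were seen, may also hold reads of the RAS construct, which could not be separated here. It had 19543.6 for hairpin 32-3, against 11855.2 and 16650.8 for hairpins 32-2 and 32-8, and 12051.4 and 11321.3 in senescent libraries. The control, with no RASG12V named, had the highest value of the 9 libraries, at 26556.6, and p53 knockdown had 23342.7.

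Among genes with a symbol that were at least 2-fold above both hairpins, the 10 with the largest differences were on none of the lists. ADAMTSL1, a secreted relative of the ADAMTS proteases, had 181.1 for hairpin 32-3, against 24.2 for hairpin 32-2 and the floor of 20 for hairpin 32-8 (3.04, SE 0.17, adjusted p = 0.212). PPARG, the adipogenic nuclear receptor, had 227.2 for hairpin 32-3, against 36.2 and 57.8 for hairpins 32-2 and 32-8 (2.31, SE 0.35, adjusted p = 0.284). SFRP1, a secreted Wnt antagonist, had 5881.3 for hairpin 32-3, against 1913.2 and 994.1 for hairpins 32-2 and 32-8 (2.09, SE 0.46, adjusted p = 0.295). In all 3 of these genes the senescent libraries lay between hairpin 32-3 and the other hairpins, at 64.2 and 57.8 for ADAMTSL1, 161.0 and 154.4 for PPARG and 2485.8 and 2350.6 for SFRP1. The transcription factor MECOM had 228.0 for hairpin 32-3, against 66.6 and 45.3 for hairpins 32-2 and 32-8. MYBL1, a MYB family factor, had 1156.3 for hairpin 32-3, against 397.9 and 408.3 for hairpins 32-2 and 32-8 (1.52, SE 0.08, adjusted p = 0.212). KLF2, a transcription factor, had 636.2 for hairpin 32-3, against 139.3 and 227.3 for hairpins 32-2 and 32-8 (1.84, SE 0.39, adjusted p = 0.295). The rest of the 10 by size were NEGR1, TMEM194A, FABP3 and LRRN4CL, with differences of 1.89, 1.57, 1.55 and 1.51. The 10 largest negative differences were taken likewise, from genes at least 2-fold below both. Of those 10, the ones not yet named were SEZ6L2, a neuronal surface protein (43.8 for hairpin 32-3, against 373.1 and 106.8 for hairpins 32-2 and 32-8), and STRA6, the receptor for retinol-binding protein (48.8, against 292.0 and 164.7).

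The genes at least 2-fold beyond both hairpins were looked up in libraries that share no sample with that choice, each set against both senescent libraries. Of the 33 genes above, 31 were above both senescent libraries in p53 knockdown (93.9%, against 43.4% of all genes), with a median log2 difference of 1.36. BRD7 knockdown had 23 of the 33 above both senescent libraries (69.7%, against 40.1%) and hairpin 32-9 had 20 (60.6%, against 43.5%). The control, with no RASG12V named, had 22 of the 33 above both senescent libraries (66.7%, against 42.8%), so a high share was not limited to knockdown libraries. Of the 71 genes below, 52 were below both senescent libraries in p53 knockdown (73.2%, against 45.0% of all genes), with a median of -0.97. In hairpin 32-9 it was 43 (60.6%, against 46.5%) and in the control 36 (50.7%, against 48.1%). In BRD7 knockdown it was 27 of the 71, a smaller share than the 45.4% of all genes. Above both senescent libraries in BRD7 knockdown were 32 of the 71 (45.1%, against 40.1% of all genes), and the median was 0.02. ADAMTSL1, for example, stood at 290.2 in p53 knockdown and 214.8 for hairpin 32-9, beside 181.1 for hairpin 32-3, but at 27.3 in BRD7 knockdown. IL13RA2 was at 46.1 in p53 knockdown, beside 44.4 for hairpin 32-3, but at 909.1 for hairpin 32-9.

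Each group was also read against the 2 senescent libraries, which both of the following comparisons share. Limma called 0 genes for hairpin 32-3 (0%, smallest adjusted p 0.073), with 1812 higher (14.5%) and 1971 lower (15.8%) at an unadjusted p under 0.05. These 3783 genes became 1829 without the first senescent library and 1566 without the second. It called 0 for hairpins 32-2 and 32-8 (0%, smallest adjusted p 0.0766), with 1785 higher (14.3%) and 2036 lower (16.3%) at an unadjusted p under 0.05, 3821 in all, which became 1656 and 1394 without the first and the second senescent library. When genes needed a mean value of 80 or more, the calls were 822 for hairpin 32-3 and 789 for hairpins 32-2 and 32-8. For mitosis genes the median log2 difference from senescent libraries was 1.71 for hairpin 32-3, 0.87 for hairpin 32-2 and 1.13 for hairpin 32-8, while it was 1.66 in BRD7 knockdown and 2.18 in p53 knockdown. For replication genes the medians were 1.30, 0.71 and 0.88 for hairpins 32-3, 32-2 and 32-8. Over all genes, hairpin 32-3 lay above both senescent libraries with hairpins 32-2 and 32-8 below both for 406 (3.25%), and the reverse held for 413 (3.31%). All 3 hairpins were on the high side for cell cycle genes, and they differed in how far. For p53 targets the medians were -0.40, -0.25 and -0.12 for hairpins 32-3, 32-2 and 32-8, and -1.04 in p53 knockdown. Inflammatory factors had medians of 0.62 for hairpin 32-3, 1.46 for hairpin 32-2 and 1.43 for hairpin 32-8, with 0.80 in BRD7 knockdown and 0.00 in both p53 knockdown and hairpin 32-9.

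**Figure D4:**
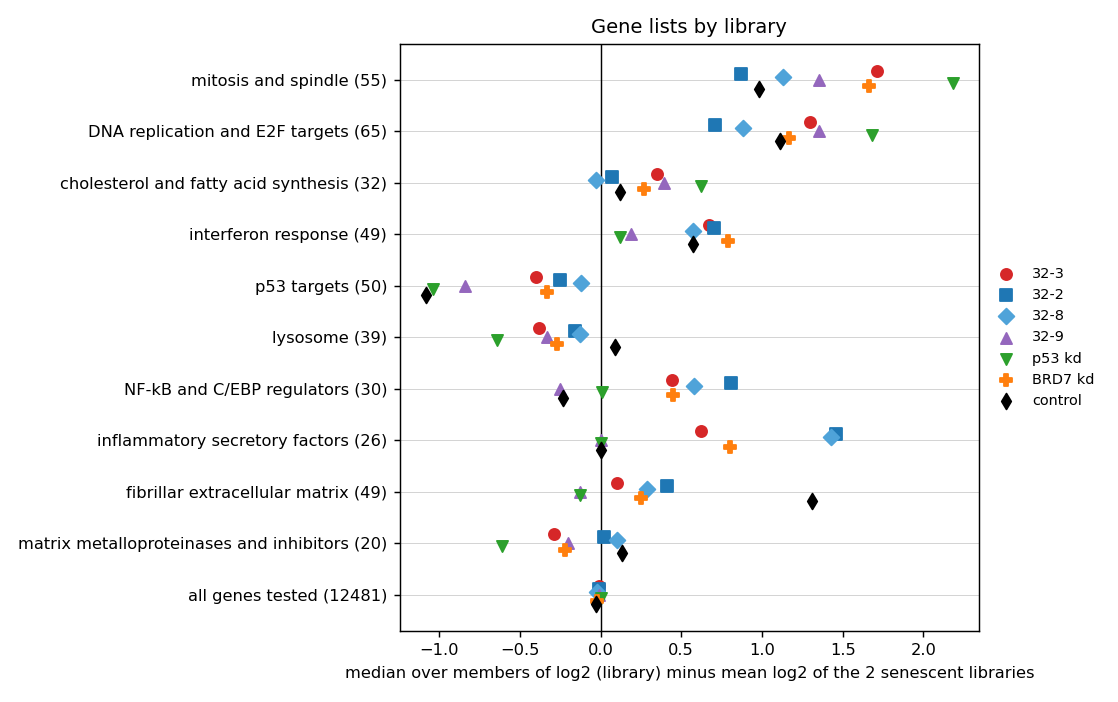
Median over list members of the log2 value of a library minus the mean log2 value of both senescent libraries, for 10 of the gene lists and for all genes tested. For mitosis genes hairpin 32-3 (1.71) lies near BRD7 knockdown (1.66) and above hairpins 32-2 (0.87) and 32-8 (1.13).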

How the data were processed

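PolyA RNA of 9 BJ libraries was sequenced after TruSeq preparation, per the labels' protocols. The authors deposited 1 table of a normalised signal per gene and library. The submitters' processing notes name TopHat2, HTSeq and hg19. No source used here gives their roles, versions or use of strand. Quantile normalisation is read from the values: all 9 columns hold the same numbers (total 14916466.5 each), so each value follows a gene's rank, and real differences in total RNA are removed. In each library 1375 genes (10.0%) sit at the floor of 20, and a difference against the floor is a lower bound. Counts and depth were not recovered, so no counting error is given.

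Symbols came from the table. For 1030 genes it had none and 21 symbols were dates, and 849 of these were filled from a gene name table.

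Values were analysed as log2 with no pseudocount in R 4.3.3 with limma 3.58.1, for 12481 genes with a value of 40 or more in any library. One fit held all 9 libraries in 7 groups, with 2 residual degrees of freedom and a variance trend, so the spread comes from the senescent pair and from hairpins 32-2 and 32-8, which differ in hairpin. Lone libraries, hairpin 32-3 among them, were assumed to vary alike. Tests were two-sided, with Benjamini-Hochberg adjustment over all genes tested. The fit was tested on simulated data.

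The members, the 21 gene lists and the tests were chosen with earlier results of these data known. Named genes were 30 chosen by name, the 10 largest differences at least 2-fold beyond both hairpins in each direction, and each list's largest member difference in each direction. Other list members, such as KIF23, were picked after their values were seen. Alternatives were pseudocounts of 10 and 50, other filters, median-of-ratios scaling, fewer or other libraries, and leaving out 1 library. Values of some fitted genes are not reported here.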

Additional observations from a re-analysis of the deposited data

Results flagged for a closer look

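For 14 of the named genes, hairpin 32-3 lay on one side of both senescent libraries and hairpins 32-2 and 32-8 lay on the other side. Over all genes tested this happened for 406 (3.25%) with hairpin 32-3 above and 413 (3.31%) with it below, and 29 genes were at least 2-fold apart between the senescent libraries. The difference between hairpin 32-3 and hairpins 32-2 and 32-8 was tested with limma, and none of the 14 genes was called. Hairpin 32-3 was above the senescent libraries and hairpins 32-2 and 32-8 below them for ADAMTSL1 (log2 difference between the hairpins 3.04), PPARG (2.31), SFRP1 (2.09), MECOM (2.05), NEGR1 (1.89), TMEM194A (1.57), FABP3 (1.55), MYBL1 (1.52), the pyruvate dehydrogenase kinase PDK3 (0.81) and the lysosomal cholesterol transporter NPC1 (0.40). It was below them and hairpins 32-2 and 32-8 above for IL13RA2 (-2.92), the endoplasmic reticulum chaperone DNAJB9 (-1.17), MMP1 (-1.03) and TMEM173 (-0.81). Hairpin 32-3 is 1 library in each case.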

How the results depend on the processing

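Hairpin 32-3 is a single library and has no replicate check. No paired analysis was made, because the labels name no pairing between libraries. Genes called for hairpin 32-3 against hairpins 32-2 and 32-8, against senescent libraries, and for hairpins 32-2 and 32-8 against senescent libraries numbered 62, 124 and 23 without a filter, and 0, 822 and 789 with a mean of at least 80. They stayed at 0 to 0, 0 to 0 and 0 to 41 with 1 library left out, the 41 without the hairpin 32-8 library. Leaving out the control and hairpin 32-9 gave 1 call for hairpins 32-2 and 32-8 against senescent libraries. Genes at least 2-fold beyond both hairpins numbered 104, but 41 with log2(value + 50), 31 with hairpin 32-9 added, and 382 to 394 with hairpin 32-8 or 32-2 left out. The inflammatory median of -1.04 was -0.63 with log2(value + 50), -0.74 without a filter and -0.02 with hairpin 32-9 added. Adding hairpin 32-9 also moved the replication median to 0.34 and the p53 target median to -0.07. With 1 hairpin left out the medians ran from 0.54 to 0.83 (mitosis), 0.38 to 0.59 (replication), -0.32 to -0.21 (p53 targets), -1.16 to -0.79 (inflammatory) and -0.08 to 0.17 (interferon). The interferon median changed sign without hairpin 32-8. Median-of-ratios scaling shifted no library by more than 0.042 log2 units. The genes added when no filter was used were all under 40 in every library, and so near the floor. The cause of the differences between filters was not tested.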

Other observations

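Enzymes of cholesterol and fatty acid synthesis lay above both other hairpins for 26 of 32 members in hairpin 32-3 (81.2%), against 34.7% of all genes. Below both lay 2 members (6.25%, against 32.6%). The median log2 difference was 0.37, the same against hairpin 32-2 alone, and 0.35 against hairpin 32-8 alone, and limma called none. SCD, the desaturase that makes oleic acid, had 5782.3 for hairpin 32-3, against 3019.3 and 2154.7 for hairpins 32-2 and 32-8 (1.18, SE 0.27, adjusted p = 0.295), and FASN, fatty acid synthase, had 5840.3, against 4409.7 and 3701.6. INSIG1, which holds the sterol sensor in the endoplasmic reticulum, was among those below both, at 1715.9 for hairpin 32-3 against 2531.7 and 2492.2 for hairpins 32-2 and 32-8. From senescent libraries the list's median log2 difference was 0.35 for hairpin 32-3, 0.07 for hairpin 32-2 and -0.03 for hairpin 32-8, and 0.62 in p53 knockdown.

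Lysosomal genes lay the other way, with 23 of 39 below both hairpins (59.0%, against 32.6% of all genes), 5 above both (12.8%, against 34.7%) and a median of -0.18. CTSS, a lysosomal cysteine protease, had 159.8 for hairpin 32-3, against 244.8 and 732.0 for hairpins 32-2 and 32-8, and NPC1 had 1601.1, against 1179.3 and 1244.1. Of 40 genes of the unfolded protein and amino acid stress responses, 21 lay below both (52.5%, against 32.6% of all genes) and 5 above both (12.5%, against 34.7%), with a median of -0.10, and glycolysis and hypoxia genes had a median of 0.06 over 33 members. DPP4, a surface protease, had 1248.8 for hairpin 32-3, against 1344.6 and 2390.0 for hairpins 32-2 and 32-8, and 361.4 in p53 knockdown.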
